A study of Mus musculus with 10 samples.

Results

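Cell cycle and DNA replication genes were followed on 10 oligonucleotide arrays of mouse hepatocyte RNA. The members are every probe set whose single platform gene symbol is Mcm2 to Mcm7 or begins with Ccna, Ccnb, Ccnd, Ccne, Cdk, Cdc, E2f, Rfc, Kif, Pola, Pold or Pole followed by a digit, together with Pcna, Mki67, Top2a, Rrm1, Rrm2, Tyms, Bub1, Plk1, Aurka and Aurkb. The rule used names and no measured value. It gave 94 genes on 128 probe sets, of the 8252 genes and 10855 probe sets that carry 1 symbol, and no probe set of Tyms or of Ccnb1 itself was among them. Each array is 1 sample: 2 of normoxic untreated cells, 2 of normoxic adeno-treated cells, 3 of hypoxic adeno-treated wild-type cells and 3 of hypoxic HIF-1alpha null cells. HIF-1alpha is a transcription factor subunit that accumulates when oxygen is low and switches on hypoxia genes. The sources used here do not give the adeno vector, the way HIF-1alpha was lost, the oxygen level, its duration or the genotype of cells kept in normoxia. Nor do they say whether null cells were adeno-treated as well, or whether arrays of a group came from separate cultures. No normoxic null sample is among the 10, so a difference between the hypoxic null and wild-type cells cannot be told apart from one that the genotypes also show in normoxia.

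A cell prepares to copy its DNA by loading the Mcm helicase at origins, and cyclins with their Cdk kinases then start S phase and later mitosis. E2F factors switch on many of the licensing and replication genes at the G1 to S transition, while genes of mitosis are switched on later through promoters that often carry CCAAT boxes and the element called CHR. Adult hepatocytes rarely divide in the liver, but they re-enter the cycle after loss of liver tissue, and freshly plated hepatocytes can turn on cyclin D1. Low oxygen slows proliferation in many cell types.

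Values are scaled intensities as the authors deposited them, and within a group they are given in the order of the sample numbers in the labels. Differences are on the scale of log2(intensity + 4.7), with standard errors, and they understate the change of dim probe sets. Adjusted p-values are from limma, two-sided, with Benjamini-Hochberg adjustment over the 7453 probe sets tested and a threshold of 0.05. The p-values measure the spread between these arrays, which may be technical, and the small number of arrays limits the precision.

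Markers of the labelled cell type were present. Of 14 hepatocyte marker genes, 13 were on the array and all of these were tested, and their summed intensity was between 26036 and 45949 on every array. Markers of other liver cell types were also present, with none at 0: the summed intensity of 17 stellate cell and fibroblast probe sets ranged from 11460 to 13550 on the 4 normoxic arrays, from 7409 to 21097 in hypoxic wild type and from 6953 to 19494 in hypoxic null cells. Both hypoxic arrays of sample number 3 stood apart, with 18S ribosomal control probe sets at a mean log2 intensity of 12.33 and 12.18 against 7.38 to 8.97 on the other hypoxic arrays and 5.98 to 10.25 on the normoxic ones. The sources used here do not say what a sample number stands for.

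Of the members, 71 genes on 84 probe sets were bright enough to test, their mean log2 intensity over the 10 arrays reaching the 40th percentile of all probe sets. The other 44 probe sets were left out, and for 23 genes these were all there were. The 23 are the checkpoint kinase gene Bub1, the topoisomerase Top2a, the spindle motor Kif11, the licensing genes Mcm6 and Cdc7, the polymerase subunits Pola1 and Pole2, the cyclins Ccna1 and Ccne2, Ccnb1ip1, the E2F genes E2f3 and E2f8, Cdk14, Cdk5r2, Cdc73 and the kinesins Kif16b, Kif1a, Kif1b, Kif3a, Kif3c, Kif5a, Kif5c and Kif9. Dimness here is relative to the other probe sets of the array and does not show that a gene was silent.

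**Figure D1:**
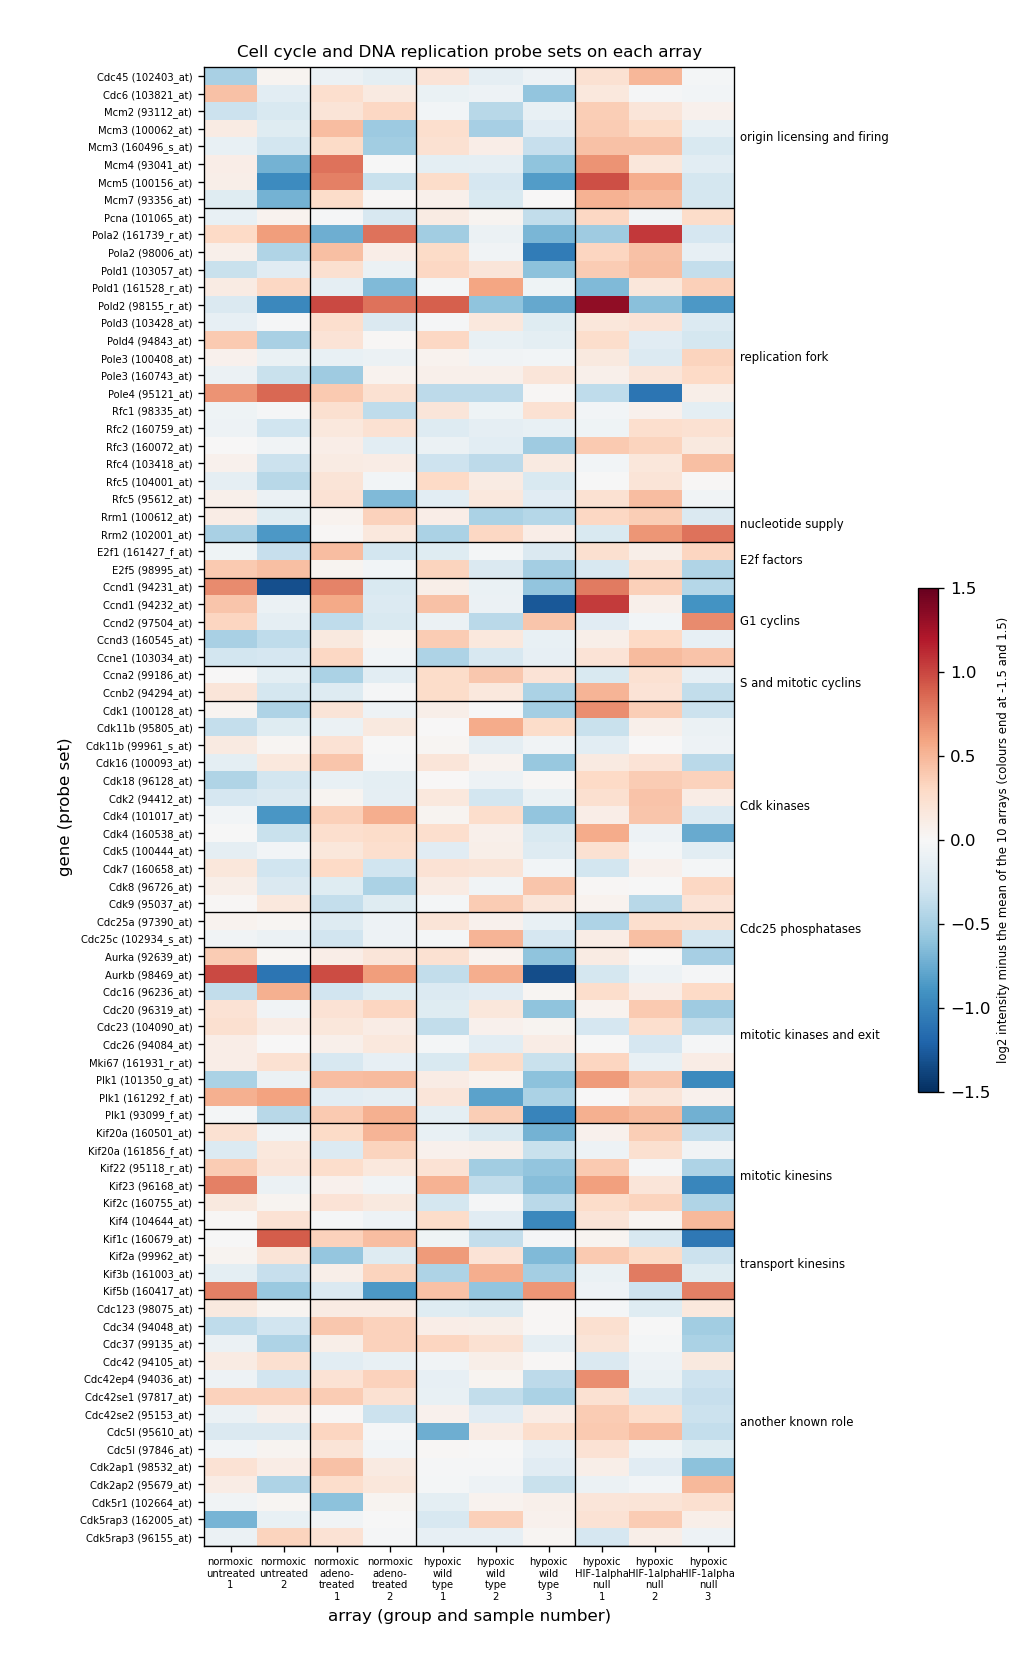
Log2 intensity of the 84 tested probe sets (rows, by role) on the 10 arrays (columns, by group and sample number), each row minus its mean over the arrays; colours end at -1.5 and 1.5. Both hypoxic number 3 columns are blue over much of licensing, the mitotic kinases and the mitotic kinesins, where the medians of these rows were -0.26, -0.54 and -0.61 in wild type and -0.13, -0.19 and -0.40 in null cells.

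In hypoxic wild-type cells against normoxic adeno-treated cells, 0 of the 84 probe sets passed the threshold in limma, where 0.322% of all probe sets tested did. At an unadjusted p below 0.05 there were 2 with positive and 3 with negative differences, and the smallest adjusted p was 0.428. The differences leaned one way: 57 of 84 were negative and the median was -0.19, against -0.02 over all probe sets tested. In the fit that pairs arrays by sample number 0 of 84 passed as well, with 2.23% of all probe sets called, and there the median was -0.06 with 48 of 84 negative. By arrays alone, 23 probe sets (27.4%) had all 3 wild-type values below both adeno-treated values and 8 had all 3 above, where 13.1% and 11.6% of all probe sets did. These differences depend on the reference. The median deviation of the 84 from their means over all arrays was 0.18 and -0.01 on the adeno-treated arrays. It was 0.02 and -0.11 on the untreated arrays, and 0.03, -0.02 and -0.18 on the hypoxic wild-type ones. With all 4 normoxic arrays as the reference, the median difference was -0.09, or 0.00 in the paired fit. Below, differences with hypoxia in wild type are those from adeno-treated cells. In whole-culture RNA, fewer dividing cells and less of these RNAs per cell cannot be told apart.

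Hypoxic null cells against hypoxic wild type gave 0 of 84 probe sets past the threshold, and 0% of all probe sets tested passed. In the paired fit 0 of 84 again passed, with 0.134% of all. Unpaired, 4 had positive and 0 negative differences at an unadjusted p below 0.05 (4.76% and 0%, against 1.69% of all probe sets on each side), and the smallest adjusted p was 0.645. Paired, 10 were positive and 1 negative at that level (11.9% and 1.19%, against 4.70% and 4.59% of all), and the smallest adjusted p was 0.155. Of the differences 60 of 84 were positive, with a median of 0.19 against 0.02 over all probe sets tested. All 3 null values lay above all 3 wild-type values for 9 probe sets and below them for 0, where 4.04% and 2.74% of all probe sets did so. This comparison and the one before share the 3 wild-type arrays, so a low reading on those arrays enters both with opposite sign.

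Against the adeno-treated normoxic cells, the null cells gave 0 of 84 calls and a median of -0.01, with 40 positive and 44 negative differences; 0.429% of all probe sets passed, and 5.78% in the paired fit, where 0 members did. At an unadjusted p below 0.05 there were 1 positive and 3 negative differences, and the smallest adjusted p was 0.315. The lean turned with pairing: in the paired fit the median was 0.10, 51 were positive and 33 negative, and 7 positive and 2 negative ones had an unadjusted p below 0.05 (of all 7453 probe sets, 842 and 819 did). Adeno-treated against untreated normoxic cells also gave 0 of 84 calls, a median of 0.08 and, at an unadjusted p below 0.05, 4 positive and 1 negative differences, or 12 and 3 when paired (14.3% and 3.57%, against 8.60% and 9.34% of all probe sets). Of all probe sets 0% passed there, and 0.255% in the paired fit, where again 0 members did. The adeno-treated arrays are shared by the comparisons with hypoxic cells.

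**Figure D2:**
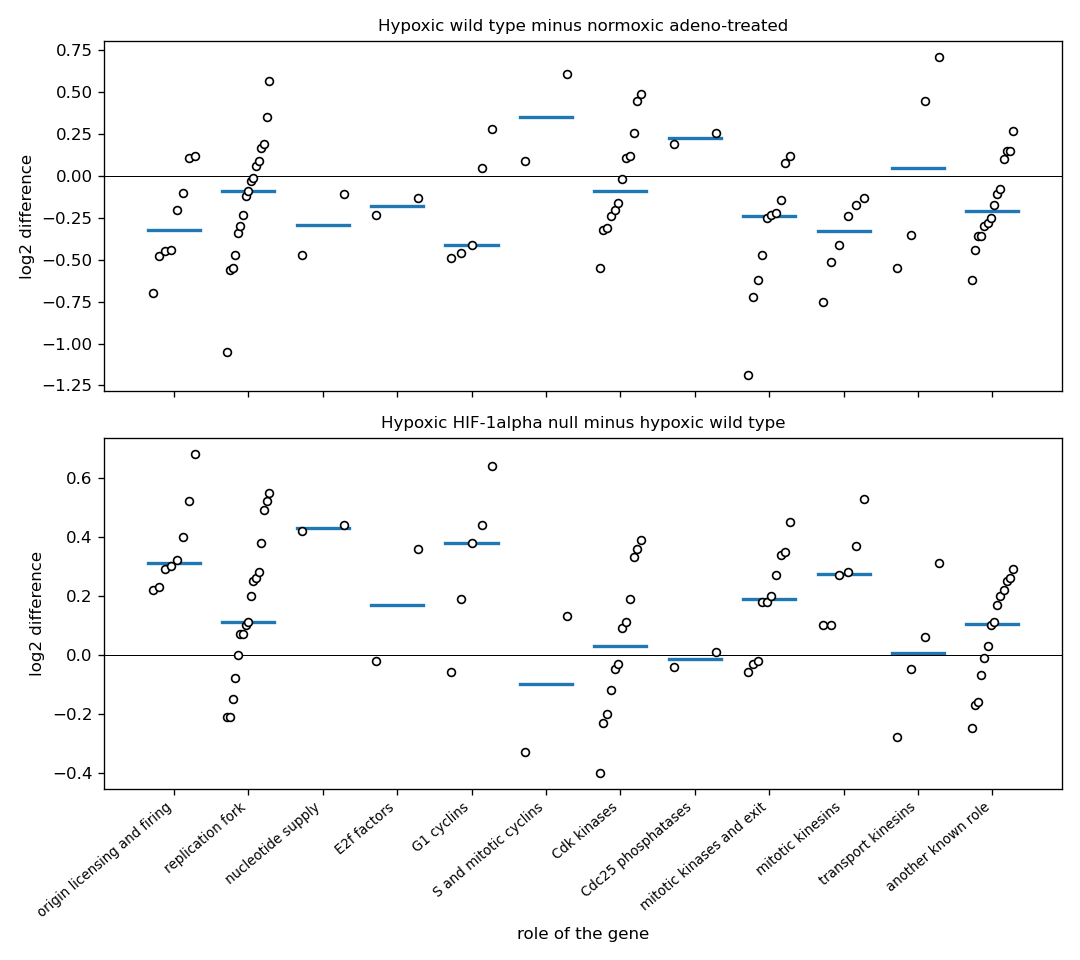
Log2 difference of each of the 84 tested probe sets (circles) by role, for hypoxic wild type minus normoxic adeno-treated cells and for hypoxic null minus hypoxic wild type; blue bars are medians per role. No circle passed the threshold; the medians for origin licensing were -0.32 and 0.31 and for mitotic kinesins -0.32 and 0.27.

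Origin licensing genes lay on one side between the genotypes. All 8 probe sets of the 7 genes tested (Mcm2, Mcm3, Mcm4, Mcm5, Mcm7, Cdc6, which loads the helicase, and Cdc45, part of its active form) had positive differences between null and wild type, from 0.22 to 0.68, and 6 of 8 were negative between wild type and adeno-treated cells; 0 of 8 passed in either. Mcm2 (93112_at), a subunit of the helicase ring, read 134 and 144 in untreated normoxia, 195 and 211 in adeno-treated normoxia, 166, 126 and 156 in hypoxic wild type and 221, 194 and 178 in hypoxic null. Both adeno-treated arrays and all 3 null arrays read above every wild-type and untreated array. The difference was -0.44 ± 0.19 from adeno-treated to hypoxic wild type (unadjusted p = 0.0431, which did not pass after adjustment) and 0.40 ± 0.17 from wild type to null (adjusted p = 0.999).

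Mcm5 (100156_at) had the largest difference between genotypes in this group, 0.68 ± 0.43 (adjusted p = 0.999). It read 315 and 152 in untreated normoxia, 503 and 233 in adeno-treated normoxia, 358, 249 and 164 in hypoxic wild type and 581, 433 and 246 in hypoxic null. Within every group the array of sample number 1 was the brightest, and each null array was brighter than the wild-type array of its number. Mcm4 (93041_at) read 166 and 93.4 in untreated normoxia, 278 and 155 in adeno-treated normoxia, 140.3, 141 and 101 in hypoxic wild type and 250.5, 175 and 139 in hypoxic null, with -0.70 ± 0.35 from adeno-treated to wild type and 0.52 ± 0.31 from wild type to null. Its 3 wild-type arrays all lay below both adeno-treated arrays. Mcm7 (93356_at) differed by 0.30 ± 0.24 between null and wild type and Mcm3 by 0.32 ± 0.30 (100062_at) and 0.22 ± 0.27 (160496_s_at).

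At the replication fork, 17 probe sets of 13 genes were tested, and 0 passed in any comparison between groups. The medians were -0.09 from adeno-treated to hypoxic wild type and 0.11 from wild type to null. The sliding clamp Pcna (101065_at) read 423 and 472 in untreated normoxia, 450.2 and 386 in adeno-treated normoxia, 497, 469.9 and 352 in hypoxic wild type and 568, 442 and 553 in hypoxic null. The 4 groups overlap, and its differences were 0.06 ± 0.20 with hypoxia and 0.25 ± 0.18 between the genotypes. Rfc2 and Rfc3 belong to the clamp loader that places Pcna on DNA. Rfc3 (160072_at) read 77.9 and 74.6 in untreated normoxia, 83.9 and 69.2 in adeno-treated normoxia, 72.7, 69.1 and 52.4 in hypoxic wild type and 104, 99.5 and 86.4 in hypoxic null. Every null array read above every other array, with 0.55 ± 0.20 against wild type (unadjusted p = 0.0193, adjusted p = 0.999). Rfc2 (160759_at) read 211 and 179 in untreated normoxia, 248 and 261 in adeno-treated normoxia, 193, 202 and 205 in wild type and 212, 266 and 259.8 in null cells. Its wild-type arrays lay below every adeno-treated and null array and between the untreated ones. The differences were -0.34 ± 0.18 from adeno-treated to wild type and 0.28 ± 0.16 from wild type to null.

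The polymerase genes lay on both sides of 0. Pole3 (160743_at), an accessory subunit of the leading-strand polymerase, read 197 and 300.0 in adeno-treated cells, 305, 304 and 329 in hypoxic wild type and 304, 328 and 357 in null cells, a first difference of 0.35 ± 0.21. Pola2 (98006_at), of the polymerase that makes primers, and Pold1 (103057_at) and Pold2 (98155_r_at), of the lagging-strand polymerase, differed by -0.55 ± 0.37, -0.12 ± 0.32 and -1.05 ± 0.66 from adeno-treated to wild type. Pold2 read 100.3 and 57.4 in untreated normoxia, 237 and 209.5 in adeno-treated normoxia, 223, 75.7 and 67.1 in hypoxic wild type and 303, 74.2 and 62.4 in hypoxic null. Its number 1 arrays were the brightest of each hypoxic group, and its probe set name carries the suffix r, for probe sets chosen under relaxed design rules. Of the 128 member probe sets, 22 carry such a suffix (f, g, i, r or s), which can mean cross-hybridisation with related transcripts.

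The subunits of ribonucleotide reductase, the enzyme that makes deoxynucleotides, were both tested. Rrm2 (102001_at), the subunit tied to S phase, read 269 and 207 in untreated normoxia, 384 and 425 in adeno-treated normoxia, 271, 472 and 406 in hypoxic wild type and 324, 606 and 672 in hypoxic null. Both untreated arrays were lowest with hypoxic wild type 1, and each null array exceeded the wild-type array of its number. The difference was 0.76 ± 0.36 from untreated to adeno-treated cells (adjusted p = 0.629) and 0.44 ± 0.30 from wild type to null (adjusted p = 0.999). Rrm1 (100612_at), the large subunit, differed by -0.47 ± 0.26 from adeno-treated to wild type and 0.42 ± 0.23 from wild type to null. Of the E2F factors, E2f1 (161427_f_at), an activator, read 91.7 and 53.1 in adeno-treated cells, 57.4, 64.3 and 55.7 in wild type and 77.9, 70.1 and 83.4 in null cells, with no overlap between the genotypes and a difference of 0.36 ± 0.23 (adjusted p = 0.999). E2f5 (98995_at), which acts with pocket proteins as a repressor, differed by -0.13 ± 0.30 with hypoxia and -0.02 ± 0.27 between the genotypes.

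Among the G1 cyclins, Ccne1 (103034_at) is the one that activates Cdk2 at the start of S phase. It read 252 and 256 in untreated normoxia, 381 and 297 in adeno-treated normoxia, 220.0, 259 and 279.8 in hypoxic wild type and 353, 426 and 412 in hypoxic null. All 3 null arrays lay above all 3 wild-type arrays, and the wild-type arrays lay below both adeno-treated ones. The difference of 0.64 ± 0.17 between null and wild type, a fold of 1.56, had the smallest unadjusted p of all members in this comparison, 0.00355, and an adjusted p of 0.645. In the paired fit that adjusted p was 0.155. From adeno-treated to wild type Ccne1 differed by -0.41 ± 0.19 (adjusted p = 0.638).

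Ccnd1 is the cyclin that activates Cdk4 in G1. Its probe set 94232_at read 562 and 394 in untreated normoxia, 625 and 362 in adeno-treated normoxia, 571, 393 and 171 in hypoxic wild type and 868, 442 and 223 in hypoxic null. The groups overlap, and within each group number 1 was highest and the last number lowest. Its differences were -0.49 ± 0.59 with hypoxia in wild type and 0.38 ± 0.53 between genotypes. Those of 94231_at were -0.46 ± 0.57 and 0.44 ± 0.51, and 0 of the 4 passed. In the paired fit, the differences with hypoxia were -0.01 ± 0.15 on 94232_at and -0.19 ± 0.36 on 94231_at. Of the S phase and mitotic cyclins, Ccna2 (99186_at) went the other way from most members. It read 196 and 175 in untreated normoxia, 139 and 174 in adeno-treated normoxia, 237, 259 and 224 in hypoxic wild type and 166, 229.5 and 179 in hypoxic null. All 3 wild-type arrays lay above both adeno-treated arrays, and each lay above the null array of its number. Its difference of 0.61 ± 0.20 with hypoxia in wild type gave the smallest adjusted p of the members there, 0.428, or 0.0929 in the paired fit; between genotypes it was -0.33 ± 0.18 (adjusted p = 0.999). Ccnb2 (94294_at), a mitotic cyclin, differed by 0.09 ± 0.30 and 0.13 ± 0.27.

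The Cdk kinases had medians of -0.09 with hypoxia and 0.03 between genotypes over 12 probe sets of 10 genes. Cdk18 (96128_at), a kinase of the PCTAIRE group, read 451 and 512 in untreated normoxia, 569.9 and 559 in adeno-treated normoxia, 618, 587 and 624 in hypoxic wild type and 762, 808 and 787 in hypoxic null. The groups did not overlap, with null cells highest. The difference from adeno-treated to null cells was 0.47 ± 0.15 (adjusted p = 0.315, or 0.0702 in the paired fit) and from wild type to null 0.36 ± 0.13 (adjusted p = 0.999). Among the kinases of the cycle itself, Cdk1 (100128_at), which drives mitosis, read 204 and 143 in untreated normoxia, 228 and 188 in adeno-treated normoxia, 212, 198 and 139 in hypoxic wild type and 325, 259 and 158 in hypoxic null. Each null array was brighter than the wild-type array of its number, and the difference was 0.39 ± 0.28. Cdk2 (94412_at) read 117, 85.1 and 96.7 in wild type and 124, 142 and 113 in null cells, 0.33 ± 0.18. Cdk4 differed between genotypes by 0.19 ± 0.29 on 101017_at and -0.12 ± 0.29 on 160538_at.

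Cdk8 and Cdk9 act mainly in transcription, and both had all 3 wild-type arrays above both adeno-treated arrays, as did Cdk18. For Cdk8 and Cdk9, the untreated normoxic arrays overlapped the wild-type ones. Cdk8 (96726_at), of the Mediator complex, read 299 and 242 in untreated, 247 and 201 in adeno-treated and 307, 271 and 376 in wild-type cells. Its difference from adeno-treated to wild type was 0.49 ± 0.21 (adjusted p = 0.595). Cdk9 (95037_at), which releases paused RNA polymerase II, read 516 and 572 in untreated, 397 and 450.0 in adeno-treated and 502, 666 and 579.6 in wild-type cells. Its difference from adeno-treated to wild type was 0.45 ± 0.22 (adjusted p = 0.652). Cdk11b (95805_at) had the most negative difference between genotypes of all members, -0.40 ± 0.20 (adjusted p = 0.999). The phosphatases Cdc25a (97390_at) and Cdc25c (102934_s_at), which remove the inhibitory phosphate from Cdk kinases, differed by 0.19 ± 0.24 and 0.26 ± 0.29 with hypoxia and by -0.04 ± 0.21 and 0.01 ± 0.26 between genotypes.

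Of 10 probe sets of 8 genes for mitotic kinases, the checkpoint and mitotic exit, 8 had negative differences with hypoxia in wild type and 7 positive ones between null and wild type, and 0 passed in either. Plk1, a kinase of mitotic entry, had 3 probe sets. On 101350_g_at it read 102 and 134 in untreated normoxia, 199 and 201 in adeno-treated normoxia, 155, 148 and 91.8 in hypoxic wild type and 226, 191 and 71.5 in hypoxic null. Both adeno-treated arrays lay above all 3 wild-type arrays, and the null arrays spanned both. The difference with hypoxia was -0.62 ± 0.43 on 101350_g_at, -0.72 ± 0.46 on 93099_f_at and -0.22 ± 0.27 on 161292_f_at. In the paired fit it was -0.26 ± 0.24 on 101350_g_at. Between genotypes the Plk1 probe sets ran from 0.18 ± 0.38 on 101350_g_at to 0.45 ± 0.24 on 161292_f_at. The most negative difference with hypoxia among all members belonged to Aurkb (98469_at), the kinase of the chromosomal passenger complex, at -1.19 ± 0.61 (adjusted p = 0.688). It read 128 and 26.6 in untreated normoxia, 126 and 98.2 in adeno-treated normoxia, 46.8, 92.2 and 21.9 in hypoxic wild type and 50.9, 58.8 and 61.3 in hypoxic null. The untreated arrays alone span most of that range.

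Cdc20 (96319_at) and Cdc16 (96236_at) belong to the ubiquitin ligase that ends mitosis, the first as its activator. Cdc20 read 256 and 275 in adeno-treated cells, 193, 248 and 143 in wild type and 228, 290.2 and 151 in null cells, -0.47 ± 0.30 with hypoxia. Cdc16 read 199.6, 206 and 236 in wild type and 279, 249 and 285 in null cells, with no overlap and a difference of 0.34 ± 0.22. Its untreated arrays, at 178.5 and 337.6, lay below and above all of these values. The kinase Aurka (92639_at) differed by -0.25 ± 0.30 with hypoxia, and the proliferation antigen Mki67 (161931_r_at) by 0.08 ± 0.27. Mki67 was dim on every array, at 36.6 to 60.6.

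All 6 probe sets of the 5 mitotic kinesins tested had negative differences with hypoxia in wild type and positive ones between null and wild type, with 0 passing. Their median deviation was 0.14 and 0.15 on the adeno-treated arrays. On the wild-type arrays it was 0.14, -0.20 and -0.61, and on the null arrays 0.23, 0.21 and -0.40. Wild-type array 1 was thus at the adeno-treated level, and normoxia has no number 3. Kif20a (160501_at), needed for cytokinesis, read 51.4 and 41.5 in untreated normoxia, 54.0 and 63.6 in adeno-treated normoxia, 39.8, 36.2 and 24.8 in hypoxic wild type and 45.6, 57.2 and 32.9 in hypoxic null. All 3 wild-type arrays lay below both adeno-treated arrays, a difference of -0.75 ± 0.31 (adjusted p = 0.572). On its brighter probe set, 161856_f_at, these groups overlapped and the difference was -0.13. That probe set read 105 and 156 in adeno-treated cells and 128, 129 and 95.9 in hypoxic wild type. Kif22 (95118_r_at) and Kif4 (104644_at), motors that bind chromosomes, differed by -0.51 ± 0.30 with hypoxia and 0.53 ± 0.32 between genotypes respectively. Kif23 (96168_at), a motor of the central spindle, differed by -0.17 ± 0.50 with hypoxia. The transport and other kinesins caught by the same name rule gave medians of 0.05 and 0.01 over 4 probe sets. Kif2a (99962_at), not counted among the mitotic kinesins above, read 24.9 and 33.9 in adeno-treated cells and 64.4, 46.4 and 23.2 in hypoxic wild type. Kif5b (160417_at), of kinesin-1, differed by 0.71 ± 0.49 with hypoxia, Kif1c (160679_at) by -0.55 ± 0.35 and Kif3b (161003_at) by 0.31 ± 0.37 between genotypes.

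A further 14 probe sets of 12 genes match the rule by name but are known for other roles. Cdc42se1 (97817_at), a small binding partner of the GTPase Cdc42, read 468 and 468 in untreated normoxia, 481 and 430.4 in adeno-treated normoxia, 339, 283 and 264 in hypoxic wild type and 429, 309.8 and 288 in hypoxic null. All 3 wild-type arrays lay below all 4 normoxic arrays, a difference of -0.62 ± 0.21 (adjusted p = 0.441). Cdk2ap1 (98532_at), a Cdk2-binding protein, differed by -0.36 ± 0.22 with hypoxia, its relative Cdk2ap2 (95679_at) by 0.26 ± 0.21 between genotypes and Cdc37 (99135_at), a partner of the chaperone Hsp90, by -0.25 ± 0.21. Without these names and the transport and other kinesins, the 66 remaining probe sets gave medians of -0.18 with hypoxia and 0.20 between genotypes.

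**Figure D3:**
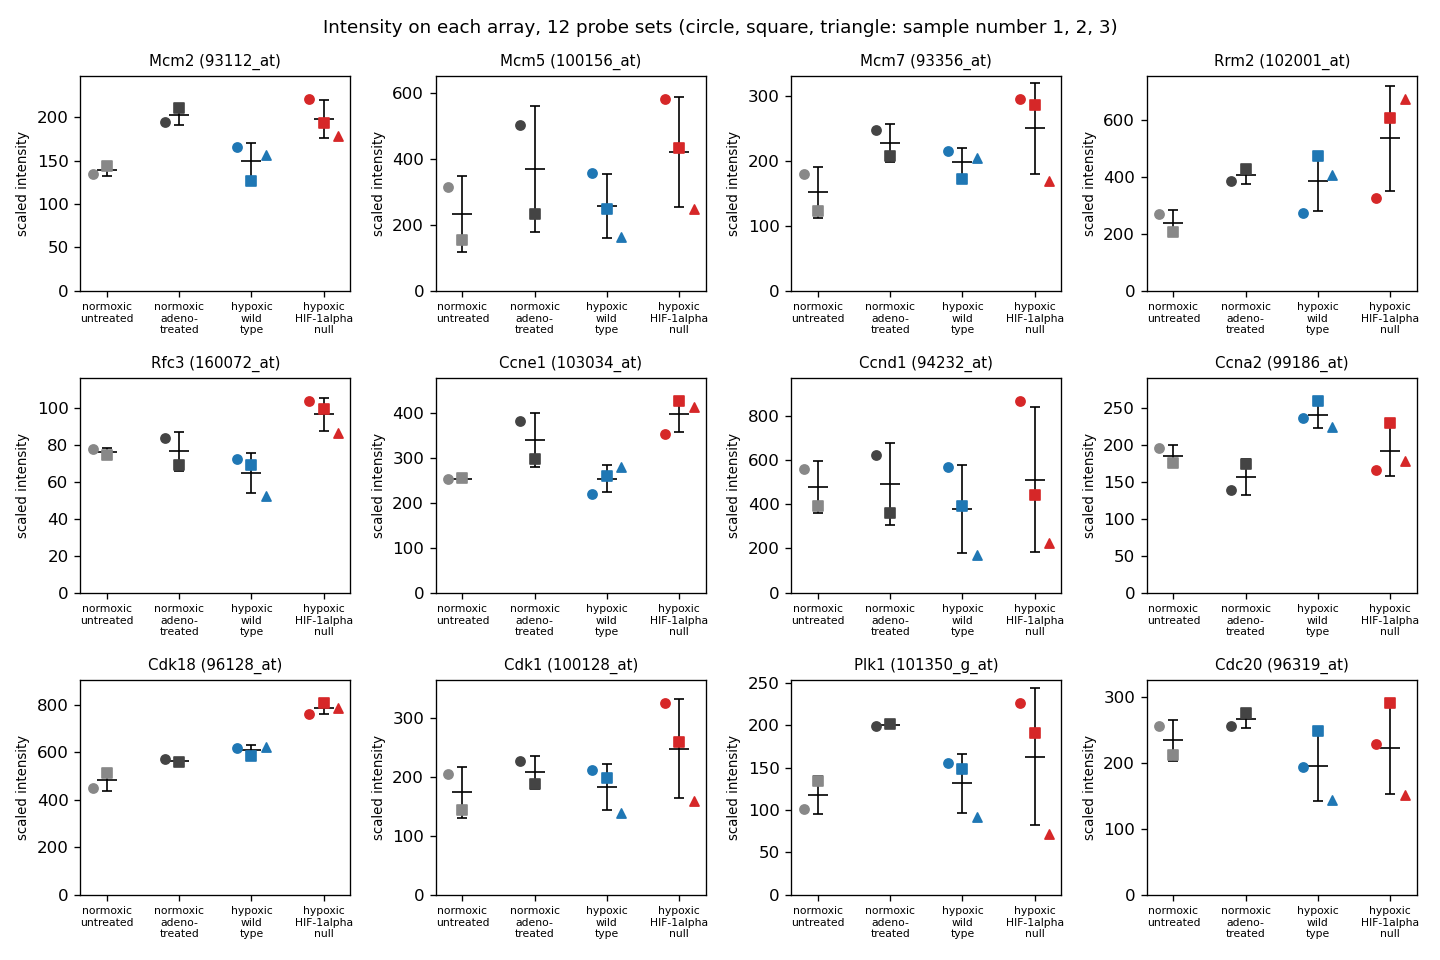
Scaled intensity (linear axis from 0) of 12 probe sets on each array by group; circles, squares and triangles are sample numbers 1, 2 and 3, and black bars the mean and SD of the group. For Ccne1, Mcm2, Rfc3 and Cdk18 the 3 null arrays lie above the 3 wild-type arrays, while for Ccnd1, Mcm5, Cdk1 and Plk1 the number 3 triangles lie lowest in both hypoxic groups.

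The differences that passed among these genes lay between sample numbers. The comparison of number 3 with number 1 had group and number in 1 fit of all arrays. In it, 19 of the 84 probe sets (22.6%), for 17 genes, were lower past the threshold and 0 were higher. Only hypoxic groups have a number 3, but the normoxic arrays enter the fit and shift its estimates. An estimate can therefore lie outside both differences between hypoxic arrays. Ccnd1 (94231_at) was at -1.25 in the fit, against -0.68 in wild type and -1.21 in null cells. Of all probe sets tested, 12.6% were lower and 8.94% higher. At an unadjusted p below 0.05 there were 27 lower and 1 higher members. The median difference was -0.31, against -0.02 over all probe sets. The smallest adjusted p, 6.14e-05, was that of Ccnd1.

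Over all 84 members, 60 were lower on number 3 than on number 1 in wild type and 53 in null cells, with medians of -0.24 and -0.23. The 19 were selected on these same arrays; as a description, each was lower in both genotypes, with medians of -0.75 and -0.88, and the number 2 array lay between numbers 1 and 3 in 30 of the 38 sets of 3 arrays. In normoxia, where numbers end at 2, all 84 members had a median difference from number 1 to number 2 of -0.11 in untreated cells, 50 of them lower, and of -0.07 in adeno-treated cells, 49 of them lower. The same 19, whose selection also used these arrays in the fit, had medians of -0.39, with 16 lower, and -0.17, with 12 lower. The count rests in part on single arrays: it was 9 without wild type 3, of which 7 were among the 19, 12 without null 1 and 3 without null 3. Those 3 were Ccnd1 (94232_at), Mcm5 and Pola2.

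**Figure D4:**
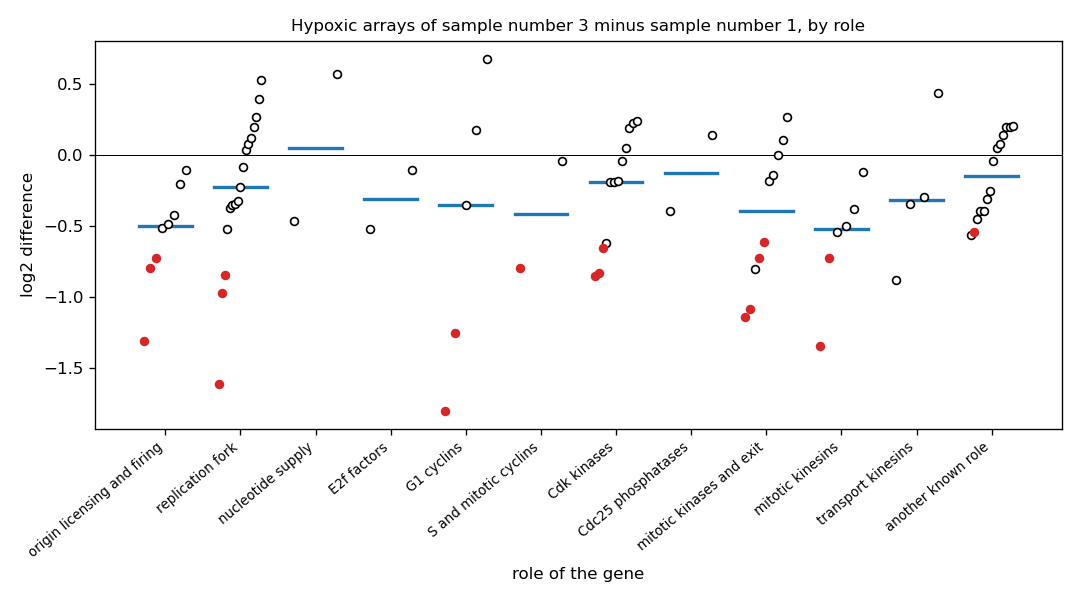
Log2 difference between sample numbers 3 and 1 for the 84 tested probe sets by role, as estimated in the fit of all arrays with group and number. Red circles passed the threshold (adjusted p below 0.05), and blue bars are medians per role. The 19 red circles lie between -1.80 (Ccnd1) and -0.54 (Cdc37).

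By role, the 19 comprised 3 of 8 licensing probe sets, 3 of 17 at the fork, 2 of 5 of the G1 cyclins, 1 of 2 of the later cyclins, 3 of 12 Cdk kinases, 4 of 10 of the mitotic kinases and exit genes, 2 of 6 mitotic kinesins and 1 of 14 with other roles. Ccnd1 was lower on number 3, at -1.80 ± 0.15, a fold of 3.48, on 94232_at and -1.25 ± 0.36 on 94231_at (adjusted p = 0.0328). In licensing, Mcm5 was lower at -1.31 ± 0.19 (adjusted p = 0.00106), Mcm4 at -0.79 ± 0.21 and Mcm3 (160496_s_at) at -0.72 ± 0.20. Mcm2 did not pass, at -0.10 ± 0.18. At the fork Pold2 was lower at -1.61 ± 0.34, Pola2 (98006_at) at -0.97 ± 0.23 and Pold1 (103057_at) at -0.84 ± 0.17, while Pcna was at -0.22 ± 0.18 (adjusted p = 0.444).

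Of the mitotic genes, 4 of 10 probe sets for kinases, checkpoint and exit and 2 of 6 for kinesins were lower, as listed by role, and the rest did not pass, Aurkb at -0.80 ± 0.58 (adjusted p = 0.377) and Cdc16 on the positive side at 0.27 ± 0.22 among them. Kif23 was at -1.34 ± 0.27 (adjusted p = 0.00654) and Kif22 at -0.72 ± 0.17, Plk1 at -1.08 ± 0.23 and -1.14 ± 0.25 on 2 of its 3 probe sets, Aurka at -0.72 ± 0.20, Cdc20 at -0.61 ± 0.18, Ccnb2 at -0.79 ± 0.17 and Cdk1 at -0.85 ± 0.17. Cdk4 (160538_at) was at -0.83 ± 0.18, Cdk16 (100093_at), a PCTAIRE kinase, at -0.65 ± 0.19 and Cdc37 at -0.54 ± 0.15. Rrm2 lay on the other side, at 0.57 ± 0.26 (adjusted p = 0.157). In the fit of the hypoxic arrays alone it passed.

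Markers of other cells moved with the sample number too. Of the stellate cell and fibroblast probe sets, 15 of 17 were lower on number 3 (median -1.27), as were 3 of 4 biliary (median -2.10), 2 of 3 endothelial (median -1.10) and 3 of 9 macrophage ones (median -0.41). Of hepatocyte probe sets 7 of 14 were higher (median 0.72), and of lymphocyte ones 0 of 2 passed (median 0.53). The part of these cells, and of the 18S signal, in the lower cell cycle signal was not tested. In the comparisons between groups the stellate cell list had medians of 0.10 with hypoxia and -0.11 between genotypes, with 0 of 17 called in either. In the paired fit the median with hypoxia was 0.56 and 1 of 17 was called higher, while that of the cell cycle genes was -0.06; its part in their values was not tested.

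**Figure D5:**
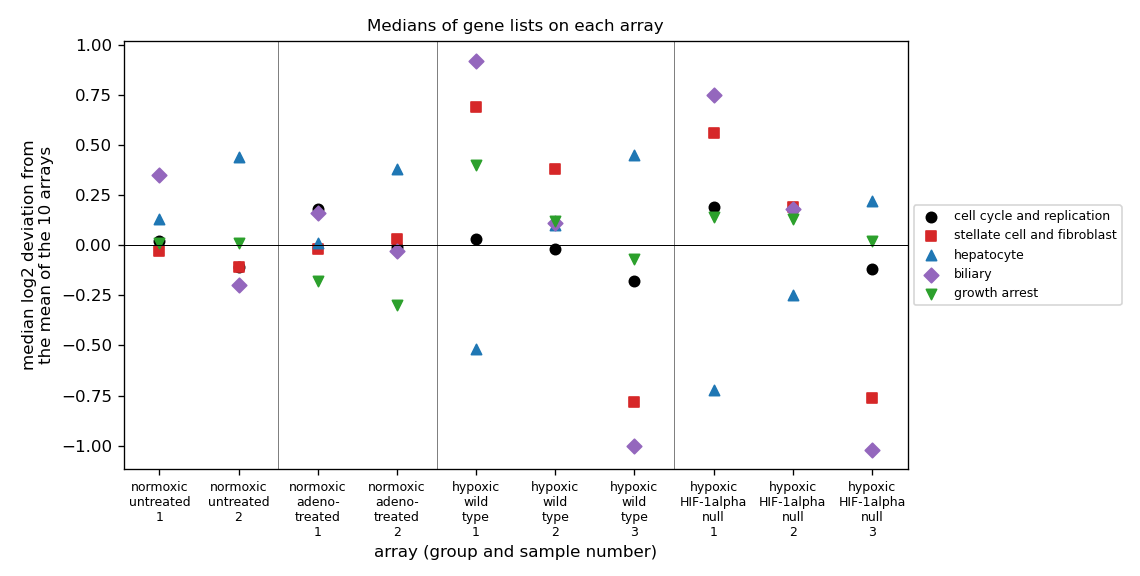
Median log2 deviation from the mean of the 10 arrays, on each array, for the 84 cell cycle and replication probe sets and for 4 other lists. On both hypoxic number 3 arrays the cell cycle median (-0.18 and -0.12) and the stellate cell median (-0.78 and -0.76) are low and the hepatocyte median (0.45 and 0.22) is high, against 0.03 and 0.19, 0.69 and 0.56, and -0.52 and -0.72 on the hypoxic number 1 arrays.

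The promoters of the 6 genes with the smallest adjusted p in that comparison, among the called genes with an entry in the promoter table, are shown because these genes were lower together. They come from RefSeq on the mouse build GRCm38.p6, 5′ to 3′ on the strand of the gene, from 250 bases before the start site to 50 after it. Capitals mark matches on either strand to an E2F motif (TTTCCCGC, TTTGGCGC or TTTCGCGC), the CCAAT box (CCAAT), the CHR (TTTGAA) and the core of a hypoxia response element (ACGTG or GCGTG); a match on the opposite strand appears as its reverse complement, such as ATTGG for CCAAT.
Mcm5, chr8:75109259-75109558, plus strand: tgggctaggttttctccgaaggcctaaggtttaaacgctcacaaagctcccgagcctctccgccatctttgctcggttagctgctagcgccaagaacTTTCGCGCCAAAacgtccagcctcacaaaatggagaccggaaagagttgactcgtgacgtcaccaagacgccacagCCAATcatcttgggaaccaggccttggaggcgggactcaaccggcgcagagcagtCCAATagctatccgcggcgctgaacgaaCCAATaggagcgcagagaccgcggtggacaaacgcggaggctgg
Pold1, chr7:44548766-44549065, minus strand: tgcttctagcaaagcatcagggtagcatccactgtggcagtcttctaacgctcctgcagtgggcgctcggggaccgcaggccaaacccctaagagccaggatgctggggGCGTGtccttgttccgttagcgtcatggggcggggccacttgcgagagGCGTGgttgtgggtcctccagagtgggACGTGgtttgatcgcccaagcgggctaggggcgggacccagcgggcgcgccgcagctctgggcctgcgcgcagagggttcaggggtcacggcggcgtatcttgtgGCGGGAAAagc
Cdk1, chr10:69352863-69353162, minus strand: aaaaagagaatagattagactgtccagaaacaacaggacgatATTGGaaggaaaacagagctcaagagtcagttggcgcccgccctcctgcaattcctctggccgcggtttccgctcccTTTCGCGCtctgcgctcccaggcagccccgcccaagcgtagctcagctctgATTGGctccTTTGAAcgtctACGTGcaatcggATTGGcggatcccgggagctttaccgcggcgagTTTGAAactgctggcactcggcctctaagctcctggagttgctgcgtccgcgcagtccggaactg
Kif23, chr9:61946750-61947049, minus strand: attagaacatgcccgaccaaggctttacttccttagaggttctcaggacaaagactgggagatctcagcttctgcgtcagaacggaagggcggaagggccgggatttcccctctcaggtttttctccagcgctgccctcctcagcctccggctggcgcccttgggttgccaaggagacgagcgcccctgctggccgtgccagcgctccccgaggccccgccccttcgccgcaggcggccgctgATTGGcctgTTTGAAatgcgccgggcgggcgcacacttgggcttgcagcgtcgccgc
Pold2, chr11:5878207-5878506, minus strand: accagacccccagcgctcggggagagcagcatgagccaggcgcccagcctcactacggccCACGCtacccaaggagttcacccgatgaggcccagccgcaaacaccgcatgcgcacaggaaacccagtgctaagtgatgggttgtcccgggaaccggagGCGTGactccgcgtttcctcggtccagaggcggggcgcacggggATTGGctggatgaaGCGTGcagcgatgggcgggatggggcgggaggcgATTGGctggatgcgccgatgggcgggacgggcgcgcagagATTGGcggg
Ccnb2, chr9:70421505-70421804, minus strand: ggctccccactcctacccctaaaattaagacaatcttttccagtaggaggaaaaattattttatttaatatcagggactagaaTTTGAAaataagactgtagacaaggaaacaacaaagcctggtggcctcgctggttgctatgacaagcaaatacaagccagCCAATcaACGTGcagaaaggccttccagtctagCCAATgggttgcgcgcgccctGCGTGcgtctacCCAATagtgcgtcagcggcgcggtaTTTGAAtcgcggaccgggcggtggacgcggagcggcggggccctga

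The Mcm5 promoter holds overlapping E2F matches from -153 to -142 and 3 CCAAT boxes, with no CHR. Pold1 has an E2F match after the start, at 40 to 47, on the opposite strand, and hypoxia cores at -141, -93 and -66. Cdk1, a gene of mitosis, has an E2F match at -131, CCAAT boxes on the opposite strand and CHR matches at -71 and -15, with a hypoxia core at -60. Ccnb2 has 3 CCAAT boxes, CHR matches at -167 and 5 and hypoxia cores at -80 and -33. Kif23 pairs 1 CCAAT box at -7 with a CHR match at 3. Pold2 has 3 CCAAT boxes on the opposite strand and hypoxia cores at -190, -91 and -33.

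An entry was found for 79 of the 94 genes, 1 per gene. E2F matches stood in 15 of these 79 promoters, against 1.9% of the 27025 promoters of the table, CCAAT boxes in 55.7% against 37.9%, the CHR in 24.1% against 18.1% and the hypoxia core in 69.6% against 43.8%. Of 58 tested members 11 held an E2F match, 33 a CCAAT box, 14 a CHR match and 40 a hypoxia core, and of 21 untested ones 4, 11, 5 and 15 did. Of the 15 called genes with an entry, 4 held an E2F match, 12 a CCAAT box, 8 a CHR match and 11 a hypoxia core. These are matches of letters, which depend on base composition, and not measured sites. The 15 members with no entry are Aurkb, Ccna2, Ccnd1, Ccnd2, Ccne2, Cdc23, Cdc25c, Cdk5, Cdk5r1, E2f5, Kif20a, Kif5a, Kif5b, Mcm4 and Rfc2.

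Other genes of the same processes were read from lists outside the name rule. Of 26 probe sets for 23 other replication genes, 0 passed with hypoxia or between genotypes, with medians of -0.14 and 0.29. At an unadjusted p below 0.05 in limma, 0 were positive and 3 negative with hypoxia, and 6 positive and 1 negative between genotypes. Cdt1, which loads the Mcm ring together with Cdc6, read 105, 84.5 and 75.3 in wild type and 208, 143 and 162 in null cells on 161787_f_at. Its difference was 0.91 ± 0.25 there and 0.92 ± 0.19 on 94024_at, with adjusted p of 0.717 and 0.429, or 0.0753 and 0.0756 in the paired fit. From adeno-treated to null cells, Cdt1 passed in the paired fit on 161787_f_at (adjusted p = 0.0354) and not without pairing (adjusted p = 0.392). Timeless (100953_at), of the fork protection complex, and Fen1 (97327_at), the nuclease that trims Okazaki fragments, differed by -0.78 ± 0.22 and -0.77 ± 0.29 with hypoxia.

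Of 24 probe sets for 23 other mitosis genes, 0 passed with hypoxia or between genotypes, with medians of -0.06 and 0.16. At an unadjusted p below 0.05, 2 were positive and 2 negative with hypoxia, and 1 positive and 0 negative between genotypes. Hmgb2 (93250_r_at), a chromatin protein, was at 1.36 ± 0.28 with hypoxia (adjusted p = 0.123) and passed in the paired fit (adjusted p = 0.0487). Anln (96784_at), of the cytokinetic ring, was at 0.71 from adeno-treated to null cells in the paired fit (adjusted p = 0.0426) and at 0.20 ± 0.58 without pairing (adjusted p = 0.953). Incenp (93758_at), of the Aurkb complex, differed by -0.73 ± 0.25 with hypoxia, and Kpna2 (92790_at), an importin, and Pttg1 (101027_s_at), the securin, by 0.51 ± 0.18 and 0.29 ± 0.15 between genotypes. Between numbers 3 and 1, 7 of the 24 were lower and 1 higher, and of the replication list 1 of 26 was lower, where 12.6% of all probe sets were lower and 8.94% higher; the share of the replication list lies below that of all probe sets. The lower ones in the mitosis list were Anln at -1.78, the spindle proteins Nusap1 (161000_i_at) at -1.14 and Prc1 (95032_at) at -0.94, Ect2 (97411_at), which starts cytokinesis, at -1.01, the condensin subunit Smc2 (97421_at) at -0.98, the tubulin-binding Stmn1 (97909_at) at -0.91 and the transcription factor Foxm1 (98306_g_at) at -0.74. Cks2 (97527_at), a Cdk-binding protein, was higher at 0.83. In the replication list it was Ezh2 (99917_at), a histone methyltransferase, at -1.37.

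The 7 probe sets of Cdk inhibitors and pocket proteins gave 0 calls in any group comparison and, with hypoxia or between genotypes, 0 at an unadjusted p below 0.05, with medians of -0.05 with hypoxia and 0.17 between genotypes. Cdkn1a (98067_at), the inhibitor p21, differed by 0.93 ± 0.42 with hypoxia (adjusted p = 0.638) on 1 of its probe sets and by 0.12 ± 0.19 on the other. Between genotypes Cdkn2d (94521_at) was at 0.96 ± 0.57 and Cdkn2c (160638_at) at 0.17 ± 0.17. With hypoxia Cdkn2b (101900_at) was at -0.42 ± 0.57. Between numbers 3 and 1, Cdkn2b was lower at -1.58 ± 0.28 and Cdkn1c (95471_at) at -0.84 ± 0.24.

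Of 16 probe sets for 15 genes of growth arrest, 3 rose with hypoxia in wild type and the others did not pass, where 0.322% of all probe sets were called. The list median was 0.39, which depends on the adeno-treated reference. The median deviation of the 16 was -0.18 and -0.30 on the adeno-treated arrays and 0.01 on both untreated arrays. It was 0.40, 0.12 and -0.07 on the hypoxic wild-type arrays. Ccng2 (98478_at), a cyclin linked to arrest, read 258 and 224 in untreated normoxia, 139.7 and 107 in adeno-treated normoxia, 389, 488 and 486 in hypoxic wild type and 252, 212 and 311 in hypoxic null. Both hypoxic groups exceeded the adeno-treated cells, while null and untreated arrays overlapped. Wild type exceeded null cells on every array. From adeno-treated cells Ccng2 rose by 1.85 ± 0.22 in wild type (adjusted p = 0.00890). The stress gene Gadd45a (102292_at) rose by 2.16 ± 0.31 (adjusted p = 0.0206) and Mnt (92300_at), a repressor that opposes Myc, by 2.32 ± 0.33 (adjusted p = 0.0179). In null cells against adeno-treated cells Gadd45a and Mnt rose by 2.39 ± 0.31 and 2.53 ± 0.33, while Ccng2 was at 1.03 ± 0.22 (adjusted p = 0.118, or 0.0232 in the paired fit). In that paired fit the list had 4 higher and 1 lower calls in wild type and 5 higher and 2 lower in null cells, where 2.23% and 5.78% of all probe sets were called in either direction. Those added by pairing were Klf4 (99622_at), higher, and Cebpa (98447_at), lower, in both, and in null cells also Ccng2 and Gadd45b (161666_f_at), higher, and Gas2 (94338_g_at), lower. Between genotypes 0 of 16 passed, with 1 positive and 3 negative at an unadjusted p below 0.05; Ccng2 was at -0.81 ± 0.20 and Mxi1 (160138_at), another Myc antagonist, at -0.87 ± 0.19 (adjusted p = 0.429, or 0.0819 in the paired fit). Between numbers 3 and 1, where 8.94% of all probe sets were higher and 12.6% lower, 2 of 16 were higher (Gadd45a and Gas2) and 6 lower (Gadd45b on both probe sets, Gadd45g, Klf4, Klf6 and Cebpa).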

How the data were processed

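The data are 1 table of 12488 probe sets on 10 arrays of mouse hepatocyte RNA. Its intensity values, on a linear scale, were scaled by the authors before they were deposited, since the mean between the 2nd and 98th percentiles was 199.6 to 200.0 on every array; earlier steps are not stated. From the deposited intensity values, log2(value + 4.7) was computed, 4.7 being the 10th percentile of all values. The 66 control probe sets and those with a mean log2 below the 40th percentile were left out, which left 7453. A platform table named the genes, and all 94 members matched a RefSeq gene. limma 3.58.1 in R 4.3.3 (lmFit on group means of all 10 arrays, eBayes with a trend) gave the tests, and the comparison of sample numbers used group and number together. The unpaired fit of hypoxic wild type against adeno-treated cells was tested on simulated arrays with independent noise. Neither the paired fit nor the comparison of sample numbers was simulated. The members, roles, lists and tests were chosen with earlier results of these data known.

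Named members are those that passed in any comparison or fit, the 2 of smallest p per role in each of the comparisons with hypoxia and between genotypes, a fixed set of core genes, and all untested genes; from other lists, those that passed and those of smallest p. Sequences of promoters came from the RefSeq table.

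The labels repeat sample numbers across groups. Deviations from group means correlated at 0.106 to 0.678 for all 13 pairs of arrays with the same number. Among hypoxic arrays they correlated at 0.542 to 0.678 for the same and -0.518 to -0.146 for different numbers. An alternative fit, called the paired fit or replicate block, therefore treated arrays sharing a number as pairs. The main fit of the group comparisons did not pair arrays. These values are not independent, because deviations within a group cancel out. Both pairs of untreated with adeno-treated arrays thus repeat the same value, 0.379. Among hypoxic arrays, negative values for different numbers follow in part from positive ones for the same number. The count of pairs and the contrast between numbers therefore add little to the positive same-number values. Alternatives were other offsets, filters, scalings, samples in the fit, the replicate block and leaving out each array.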

Additional observations from a re-analysis of the deposited data

How the results depend on the processing

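No member passed in a comparison between groups under any alternative run, except in these: with the replicate block and all 4 normoxic arrays as the reference, a choice made after seeing the data, 1 member was called lower in hypoxic wild type (Cdc42se1, limma adjusted p = 0.0390) and the median of the members was 0.00, and with the block and without untreated array 1, 1 was called higher in adeno-treated cells (Cdk4 on 101017_at, limma adjusted p = 0.0382). With the block and without null array 1 the median from adeno-treated to null cells was 0.17. Leaving out 1 array at a time, a lone array being assumed to vary like the other groups, moved the median with hypoxia between -0.26 and -0.09, between genotypes between 0.08 and 0.25, from adeno-treated to null between -0.12 and 0.10, from untreated to adeno-treated between 0.03 and 0.20 and between numbers 3 and 1 between -0.31 and -0.25. The count of members lower on number 3, 19 with all arrays, was 3 to 16 when 1 array was left out, and those called were not always among the 19. Called higher was 1 member with no filter (Kif1b), with quantile normalization or median centring (Ccnd2 in both) and with only the hypoxic arrays (Rrm2). The causes were not tested. Among 52 named probe sets no called difference changed sign; uncalled ones did so for 30 probe sets with hypoxia and 23 between genotypes under at least 1 alternative. The replicate block changed no other call of a member. Precision is limited by 2 or 3 arrays a group and, for dim members, by signal near the filter.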

Other observations

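Of the members, 12 genes had more than 1 tested probe set, and the probe sets of a gene did not always lie on the same side. They shared a sign in 7 of 12 genes with hypoxia in wild type, in 9 between genotypes (1 of the Rfc5 values being 0.00 after rounding) and in 9 between sample numbers 3 and 1. For Plk1, adeno treatment in normoxia gave 0.76 on 101350_g_at and 0.69 on 93099_f_at but -0.72 on 161292_f_at. For Pold1 the number comparison gave -0.84 on 103057_at and 0.27 on 161528_r_at, and for Pola2 -0.97 on 98006_at and 0.04 on 161739_r_at.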
